A study of Mus musculus with 6 samples.

Results

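The genes of V(D)J recombination and of classical non-homologous end joining were followed in mouse blood stem and progenitor cells transformed with MLL-AF9, a leukemia oncogene made by a chromosomal fusion. The members were the rows of the count table named Rag1, Rag2, Dntt, Xrcc4, Xrcc5, Xrcc6, Lig4, Prkdc, Dclre1c and Nhej1, and all 10 were found among the 23337 counted genes. Polyadenylated RNA was sequenced from 3 libraries of pro-lymphoid culture (replicates 1, 5 and 6) and 3 of pro-myeloid culture (replicates 2, 3 and 4), and all 6 carried the fusion. The labels name no cytokines, mouse strain or age. Nothing in them shows that replicates were independent cultures or animals, so each p-value reflects library-to-library spread alone, which may be technical. Both names describe the culture and do not show that the cells are of 1 type.

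Developing lymphocytes assemble antigen receptor genes by cutting and rejoining their V, D and J segments. The RAG1 and RAG2 proteins form the recombinase that makes the cuts, and terminal deoxynucleotidyl transferase (Dntt) adds untemplated bases at the junctions. The breaks are rejoined by end joining factors that most cells express: the Ku dimer (Xrcc5 and Xrcc6) binds the ends and recruits the kinase DNA-PKcs (Prkdc), Artemis (Dclre1c) opens the hairpins, and XRCC4, DNA ligase IV (Lig4) and XLF (Nhej1) seal them. In mice, loss of either Rag gene or of DNA-PKcs stops lymphocyte development.

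The recombinase genes were present in pro-lymphoid culture and near or at 0 in pro-myeloid culture, while the 6 end joining genes that could be tested were measured in both cultures and differed by at most 2.12-fold. Rag1 and Rag2 were higher in pro-lymphoid culture. Among the end joining genes Xrcc6 was higher, Dclre1c and Xrcc4 were lower, and Prkdc, Lig4 and Nhej1 did not pass the test. Dntt and Xrcc5 were at or near 0 counts in both cultures.

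The libraries held 34972488 to 46724382 counts, so that 1 count was worth 0.0214 to 0.0286 CPM before scaling. CPM, a count divided by its library total on a common scale, was then scaled between libraries with the trimmed mean of M-values (TMM). Genes were called at an adjusted p under 0.05 in edgeR's quasi-likelihood test with Benjamini-Hochberg adjustment over the 12477 genes that passed its low-count filter, and "adjusted p" below is from this test. Of these genes, 37.4% were called, 16.8% as higher and 20.6% as lower in pro-lymphoid culture. Of the 10 members, 8 passed the filter, and 5 of these were called. Rag1 and Rag2 passed the filter through the pro-lymphoid libraries alone and so had to differ, which leaves 3 of 6 end joining genes called.

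**Figure D1:**
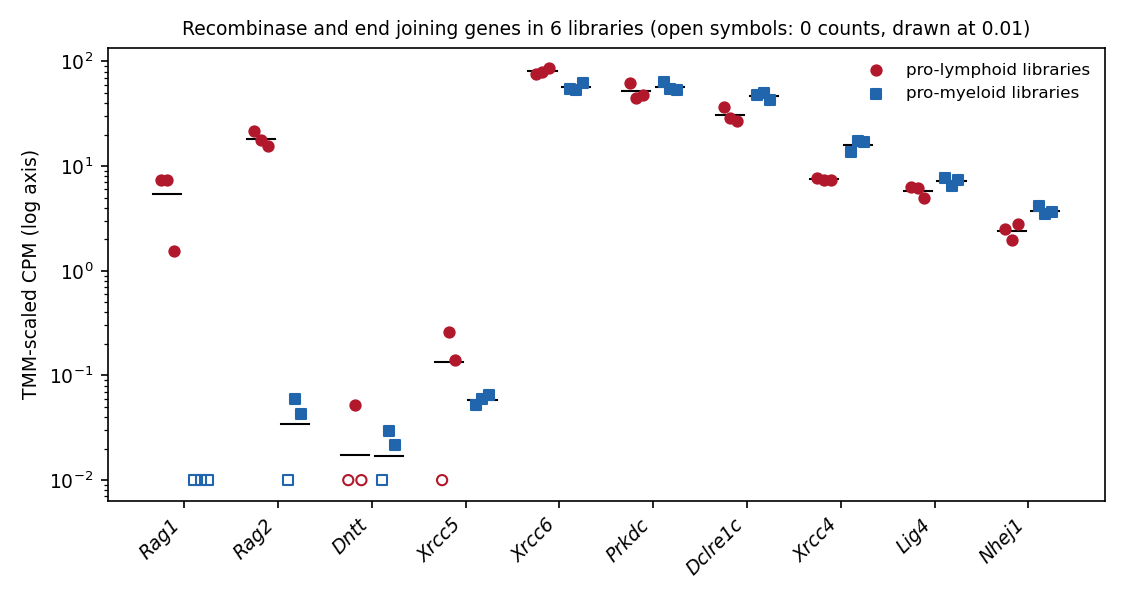
TMM-scaled CPM (y axis, log scale) of the 10 genes (x axis) in the pro-lymphoid (red circles) and pro-myeloid (blue squares) libraries; bars are group means and open symbols stand at 0.01 for libraries with 0 counts. Rag1 and Rag2 part the cultures, Dntt and Xrcc5 lie at the bottom in both, and the other genes differ by at most 2.12-fold between the cultures.

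Rag2, the recombinase subunit that reads a histone mark of active chromatin, stood at 21.4, 17.6 and 15.4 CPM in pro-lymphoid replicates 1, 5 and 6. It stood at 0, 0.0592 and 0.0433 CPM in pro-myeloid replicates 2, 3 and 4, from 0, 2 and 2 counts. The pro-lymphoid libraries were close to each other and far above every pro-myeloid library. Over the groups Rag2 had 2122 against 4 counts, a scaled ratio of 532 (95% counting interval 207 to 1950). The fitted log2 fold change was 8.94 ± 0.53 (SE, adjusted p = 7.76e-05). Counting intervals and floors cover counting error only, since PCR copies were not marked and reads need not be independent molecules. In bulk libraries such as these, fewer cells with a transcript and less of it per cell cannot be told apart.

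Rag1, which holds the catalytic site of the recombinase, stood at 7.32 and 7.29 CPM in pro-lymphoid replicates 1 and 5 and at 1.56 CPM in replicate 6. It had 0 counts in all 3 pro-myeloid libraries. Every pro-lymphoid library was therefore above the pro-myeloid ones, but replicate 6 was well below the other pro-lymphoid libraries. Against a floor of 3 counts over the pro-myeloid group, Rag1 was at least 205-fold higher (616 against 0 counts, adjusted p = 0.00327). The limit ran from 125-fold to 288-fold with each library left out in turn. It was lowest, at 125-fold, without pro-myeloid replicate 4, because the same floor then stands for fewer reads. At 3 counts per library, the pro-myeloid libraries allow Rag1 levels of up to 0.0642 to 0.0853 CPM.

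Rag1 and Rag2 did not hold a constant ratio within pro-lymphoid culture. Per kilobase of counted exon, Rag1 stood at 1.10, 1.09 and 0.234 RPKM (CPM per kilobase) in replicates 1, 5 and 6, and Rag2 at 6.31, 5.18 and 4.53 RPKM. The Rag1 level was thus 0.174, 0.211 and 0.0516 of the Rag2 level per length (mean 0.146 ± 0.0836, SD, n = 3). Of the reads on either gene, Rag1 held 25.5% in replicate 1 (exact 95% binomial interval 22.9 to 28.2%), 29.3% in replicate 5 (26.5 to 32.3%) and 9.2% in replicate 6 (7.2 to 11.5%). The share in replicate 6 lay outside the counting intervals of the other libraries, whereas its Rag2 level was close to theirs.

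The genes lie tail to tail on mouse chromosome 2 (mm10). Rag2 runs on the plus strand from 101624748 to 101632528 and Rag1 on the minus strand from 101638252 to 101649532, with 5723 bases between them. Counting ignored strand. No other counted gene shared exon bases with either of them, although B230118H07Rik (minus strand, 101560781 to 101628986) overlaps the first part of Rag2 outside its exons.

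The 250 bases before each start are shown for Rag2 and Rag1, which were high in the same libraries, and for Xrcc6, the end joining gene that was also higher, to set a lineage-restricted and a broadly active promoter side by side. They come from RefSeq (GRCm38.p6) and run 5′ to 3′ on the gene's strand. For the Rag genes capitals mark E-boxes (CANNTG, the letters that E proteins such as the product of Tcf3 bind) and the ETS-type letters GAGGAA. Other GGAA letters, the core that ETS factors share, are not marked. For Xrcc6 capitals mark GC boxes (GGGCGG). All were searched on both strands. The windows are chr2:101624462-101624711 (plus strand) for Rag2, chr2:101649533-101649782 (minus strand) for Rag1 and chr15:82016119-82016368 (plus strand) for Xrcc6.
Rag2: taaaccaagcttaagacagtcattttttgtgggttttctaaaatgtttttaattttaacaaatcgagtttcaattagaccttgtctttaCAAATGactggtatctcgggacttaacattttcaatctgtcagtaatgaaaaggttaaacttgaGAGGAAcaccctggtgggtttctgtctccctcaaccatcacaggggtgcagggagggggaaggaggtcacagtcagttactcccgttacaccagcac
Rag1: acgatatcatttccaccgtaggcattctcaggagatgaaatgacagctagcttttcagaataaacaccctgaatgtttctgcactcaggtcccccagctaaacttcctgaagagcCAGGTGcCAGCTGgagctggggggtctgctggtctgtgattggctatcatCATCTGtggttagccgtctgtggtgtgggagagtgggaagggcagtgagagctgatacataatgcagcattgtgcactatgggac
Xrcc6: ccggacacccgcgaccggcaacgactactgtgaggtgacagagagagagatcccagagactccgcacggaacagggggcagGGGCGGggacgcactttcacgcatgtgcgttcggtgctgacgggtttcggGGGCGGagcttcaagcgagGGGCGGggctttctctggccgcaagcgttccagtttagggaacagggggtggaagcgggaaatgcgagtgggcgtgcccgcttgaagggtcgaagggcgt

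Rag1 held 3 E-boxes, at 135, 128 and 85 bases before its start, and Rag2 held 1 E-box at 161 bases and 1 GAGGAA at 97 bases. Xrcc6 held 3 GC boxes, at 169, 119 and 100 bases, and 1 E-box, which is not in capitals. E-boxes were also found in the promoters of Dntt (3), Xrcc5 (2), Dclre1c (2), Lig4 (1) and Nhej1 (1). Of 32851 promoters in the RefSeq table, 66.2% held an E-box, 23.3% GAGGAA and 32.7% a GC box, so these letters are common. Rag1 also held the forkhead core (TGTTTA, in 12% of promoters) and 1 CCAAT box (CCAAT, 33.8%). Neither Rag promoter held a TATA box (TATAAA, 12.4%) or a GC box. The motifs marked in capitals do not overlap one another in these windows. A match to such letters is not a binding site.

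The promoters differed in base composition. CpG observed over expected was 0.19 for Rag1, 0.283 for Rag2 and 0.185 for Dntt, below the median of 0.373 over all promoters. Their percentiles were 28.3, 40.9 and 27.5, so Rag2 was not far below the median. The CpG ratio was 1.01 for Xrcc6, 0.912 for Xrcc4 and 0.958 for the Lig4 start nearest the counted gene. All were above the 89th percentile of promoters, with 25, 26 and 28 CpG sites. Xrcc5 (0.412), Dclre1c (0.426) and Nhej1 (0.615) lay between, at percentiles of 53.2, 54.2 and 67. The RefSeq start of Nhej1 is 78587 bases from the start of the counted gene. Prkdc has no entry in the table used, so 9 of 10 members were matched. These are descriptions of single promoters with no test.

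**Figure D2:**
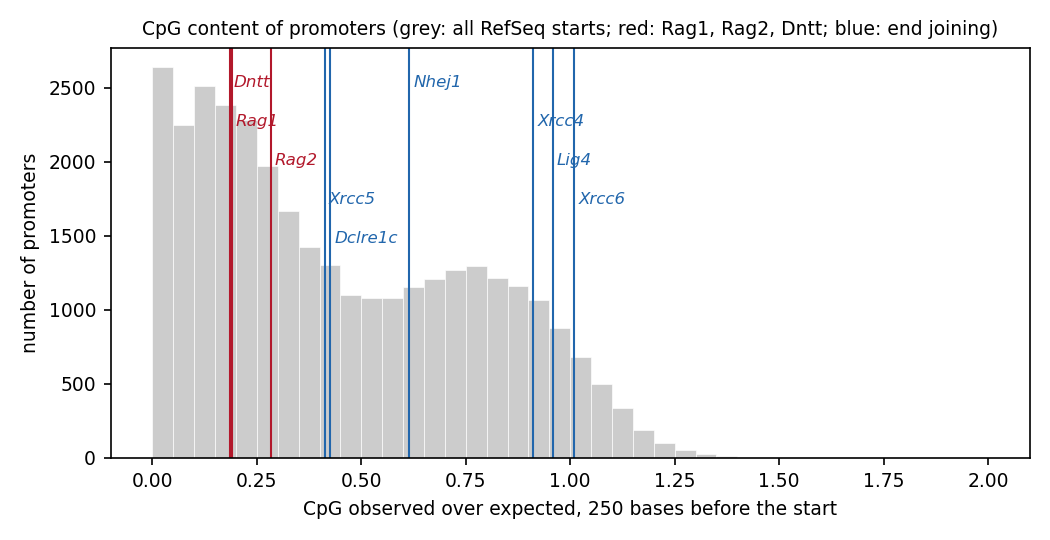
CpG observed over expected in the 250 bases before a start (x axis) over 32851 RefSeq promoters (grey bars, number of promoters on the y axis), with lines at Rag1, Rag2 and Dntt (red) and at 6 end joining genes (blue; Lig4 at the start nearest the counted gene). The red lines lie at 0.185 to 0.283 and the highest blue line, Xrcc6, at 1.01.

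The counted genes on either side of the Rag pair did not follow it as a block. By the rule for named genes, the 3 counted genes on each side were read. They are the next in order and need not be close. Api5 (94411727 to 94438147) and Lrrc4c (97467674 to 97631664) lie far before Rag2, which starts at 101624748. Traf6, an adaptor of innate and TNF receptor signalling, lies next to Rag1 and stood at 52.4, 45.5 and 53.7 CPM in pro-lymphoid against 60.5, 52.3 and 49.7 CPM in pro-myeloid replicates (adjusted p = 0.57). Commd9 (adjusted p = 0.975) and Api5 (adjusted p = 0.178) were also not called. B230118H07Rik, whose span overlaps Rag2, stood at 12.9, 11.3 and 11.9 CPM in pro-myeloid replicates 2, 3 and 4 and at 13.4 and 8.17 CPM in pro-lymphoid replicates 5 and 6. In pro-lymphoid replicate 1, where Rag2 was highest, B230118H07Rik was at 0.841 CPM, and it was not called between cultures (adjusted p = 0.513).

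Of the other genes in this order, Lrrc4c, which is not close to the pair, was higher and Prr5l lower. Like the Rag genes, Lrrc4c passed the filter through the pro-lymphoid libraries alone and so had to differ. Lrrc4c, a gene of synaptic adhesion, had 2.63, 4.37 and 4.63 CPM in pro-lymphoid replicates 1, 5 and 6 and 0 counts in every pro-myeloid library. It was at least 154-fold higher (463 against 0 counts, adjusted p = 7.4e-04), and at least 94-fold to 177-fold with each library left out in turn, the lowest without pro-myeloid replicate 4. Prr5l, a component gene of mTOR complex signalling, fell to 0, 0.444 and 0.0698 CPM from 1.07, 1.98 and 1.8 CPM (log2 fold change -3.22 ± 0.98, SE, adjusted p = 0.0382). Its call was lost without pro-lymphoid replicate 6 or pro-myeloid replicate 3 or 4 (adjusted p up to 0.138).

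**Figure D3:**
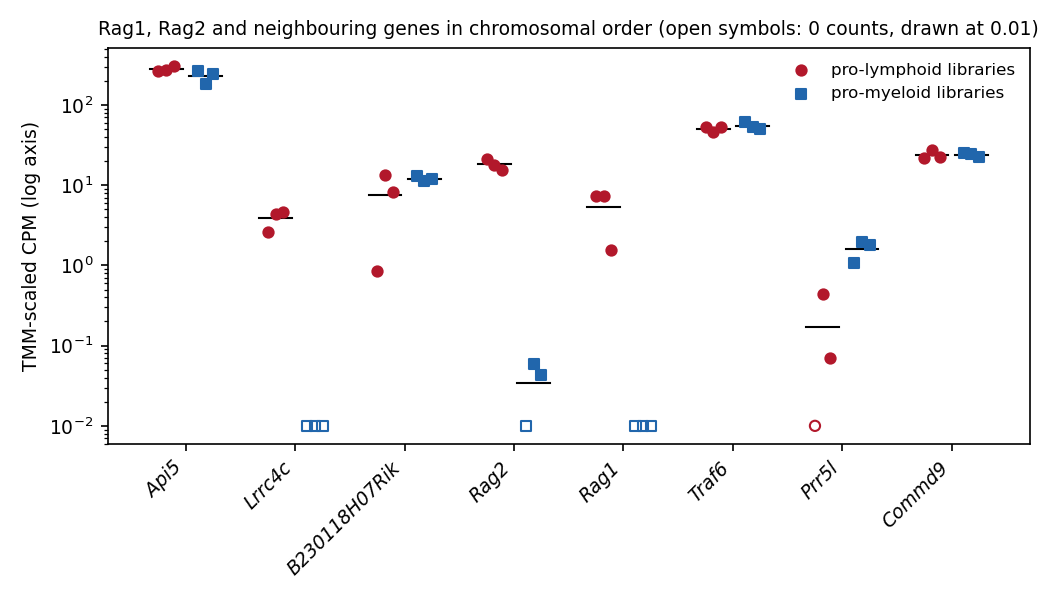
TMM-scaled CPM (y axis, log scale) of Rag1, Rag2 and the 3 counted genes on each side in chromosomal order (x axis) in pro-lymphoid (red circles) and pro-myeloid (blue squares) libraries, with group means as bars and open symbols at 0.01 for 0 counts. Rag1, Rag2 and Lrrc4c are the genes with no or almost no pro-myeloid reads, and Traf6 and Commd9 overlap between the cultures.

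Among 10131 tested genes with a mean of at least 5 CPM in either culture, the 5 whose log2(CPM + 0.5) followed that of Rag2 most closely over the 6 libraries were Abcb4 (Pearson r = 0.9990), Eps8l1 (0.9988), Slc16a7 (0.9986), Gas8 (0.9982) and Slc14a1 (0.9981). Abcb4, a phospholipid transporter gene, stood at 40.9, 33.2 and 35.1 CPM in pro-lymphoid and 0.651, 0.977 and 0.715 CPM in pro-myeloid replicates. Slc14a1, a urea transporter gene, stood at 37.6, 40.8 and 39.1 against 0.0781, 0.178 and 0.0867 CPM. Gas8 differed far less, at 12.7, 12.4 and 12 against 6.59, 6.39 and 6.26 CPM, since r does not depend on the size of the difference. Rag1 itself ranked 551st (r = 0.9468) and Xrcc6 729th (0.9337). With a pseudocount of 0.1 CPM, 4 of the 5 genes remained. The points share their libraries and the separation of the cultures, so no p is given.

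Dntt gave 0, 2 and 0 counts in pro-lymphoid replicates 1, 5 and 6 and 0, 1 and 1 in pro-myeloid replicates 2, 3 and 4. It was removed by the filter, and both groups were at or under the floor, so no fold is given. The polymerase of junction diversity was thus not detectable above a few reads in libraries that held 728 to 1059 reads of the recombinase genes.

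Xrcc6, which encodes the Ku70 subunit, was the most abundant member per length. It stood at 76.5, 79.7 and 85.8 CPM in pro-lymphoid replicates 1, 5 and 6 and at 54.9, 53.0 and 62.8 CPM in pro-myeloid replicates 2, 3 and 4. The cultures did not overlap, and the mean was 80.7 ± 4.7 against 56.9 ± 5.18 CPM (SD, n = 3), or 38.2 against 26.9 RPKM. The log2 fold change was 0.50 ± 0.11 (SE, 95% interval 0.24 to 0.77, adjusted p = 0.0132), and the call was lost without pro-lymphoid replicate 6 (adjusted p = 0.0603).

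Xrcc5, which encodes the Ku80 partner of Ku70, gave 0, 10 and 6 counts in pro-lymphoid replicates 1, 5 and 6 and 2, 2 and 3 in pro-myeloid replicates 2, 3 and 4. It did not pass the filter. Per length its level was at most 0.271% of that of Xrcc6 in any library, although the proteins act as a dimer. The counted gene has 21 exons and 2556 bases on chromosome 1 (plus strand, 72307421 to 72394953), no counted gene overlaps it, and its GENCODE M21 transcript matched those of 0 other genes in blastn at an E-value of 1e-10. The transcripts of Xrcc6 matched those of 1 other gene, so reads of Xrcc6 could be shared with it. Tested without the filter, the cultures gave no call (adjusted p = 0.467). The counts are reported as they stand in the table, and the reason for the low values was not tested.

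Prkdc, the gene of the DNA-PKcs kinase, stood at 62.3, 44.4 and 48.2 CPM in pro-lymphoid and 63.4, 54.0 and 53.4 CPM in pro-myeloid replicates. The cultures overlapped, with a log2 fold change of -0.14 (95% interval -0.51 to 0.23, adjusted p = 0.508). Per length, the ratio of Prkdc to Xrcc6 was 0.107 ± 0.0245 in the pro-lymphoid libraries and 0.168 ± 0.0254 in the pro-myeloid libraries (SD, n = 3, two-sided exact permutation p = 0.1, the smallest that 3 against 3 libraries allow). The values were 0.136, 0.0928 and 0.0936 against 0.193, 0.17 and 0.142, without overlap. This ratio was chosen after the values were seen.

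Dclre1c, the gene of the Artemis nuclease that opens RAG-made hairpins, was lower in pro-lymphoid culture. It stood at 37.0, 28.7 and 27.1 CPM in pro-lymphoid and 47.7, 49.7 and 43.1 CPM in pro-myeloid replicates, without overlap. The log2 fold change was -0.60 ± 0.15 (SE, 95% interval -0.96 to -0.24, adjusted p = 0.02). The call was lost without pro-lymphoid replicate 5 or 6 or pro-myeloid replicate 3 (adjusted p = 0.0739, 0.0815 and 0.0549). It shares 210 exon bases (3.38% of its counted length) with Suv39h2 on the other strand, and reads there cannot be told apart without strand.

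Xrcc4, the scaffold of DNA ligase IV, fell most among the end joining genes. It stood at 7.73, 7.37 and 7.31 CPM in pro-lymphoid and 13.6, 17.3 and 16.8 CPM in pro-myeloid replicates. The pro-lymphoid libraries were nearly equal and all lay well below the pro-myeloid ones. The mean was 7.47 ± 0.228 against 15.9 ± 2.01 CPM (SD, n = 3), with a log2 fold change of -1.09 ± 0.18 (SE, 95% interval -1.51 to -0.67, adjusted p = 0.00386). The call held in all 6 fits with 1 library left out and in the 6 other alternatives, with an adjusted p of at most 0.0227.

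Lig4, the ligase itself, stood at 6.26, 6.12 and 5 CPM in pro-lymphoid and 7.76, 6.39 and 7.35 CPM in pro-myeloid replicates. All pro-lymphoid values were below the pro-myeloid ones by a small margin, and the log2 fold change of -0.31 did not pass (95% interval -0.81 to 0.20, adjusted p = 0.3). Per length, the Xrcc4 level was 3.43 ± 0.369 times that of Lig4 in the pro-lymphoid libraries and 5.92 ± 1.26 times in the pro-myeloid libraries (SD, n = 3, two-sided exact permutation p = 0.1, the smallest possible), a ratio that was also chosen after the values were seen. These 2 ratios and that of Xrcc5 to Xrcc6 (two-sided exact permutation p = 0.7) were the 3 compared, and none can pass in a design whose smallest p is 0.1.

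Nhej1, the gene of the XLF factor that bridges ends with XRCC4, stood at 2.52, 1.96 and 2.77 CPM in pro-lymphoid and 4.11, 3.46 and 3.64 CPM in pro-myeloid replicates. The cultures did not overlap, but the log2 fold change of -0.63 did not pass (95% interval -1.26 to 0.00, adjusted p = 0.106). It is the least covered of the end joining genes that passed the filter, with 287 against 443 counts over the groups. Of the 6 tested end joining genes, 5 did not overlap between the cultures, against 53.6% of all tested genes.

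**Figure D4:**
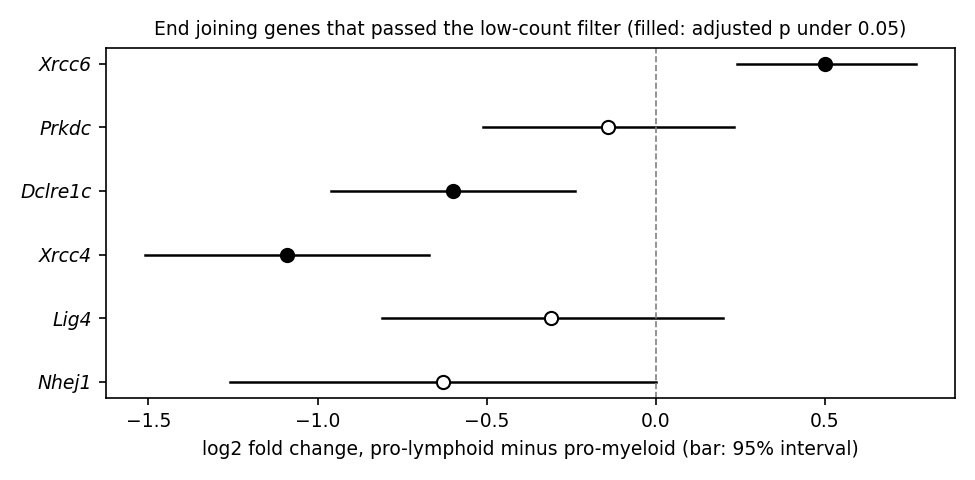
Log2 fold change between cultures (x axis, pro-lymphoid minus pro-myeloid) of the 6 end joining genes that passed the filter (y axis), with 95% intervals from the edgeR fit and filled points where the adjusted p was under 0.05. Xrcc6 lies to the right at 0.50, and Xrcc4 lies farthest to the left at -1.09.

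Per length, the order of the mean levels in pro-lymphoid culture was Xrcc6 (38.2 RPKM), Rag2 (5.34), Dclre1c (4.97), Xrcc4 (4.83), Prkdc (4.07), Nhej1 (2.86), Lig4 (1.42) and Rag1 (0.809), with Xrcc5 (0.0523) and Dntt (0.00818) last. Rag2 and Dclre1c (SD 0.898 and 0.858 RPKM) differed by less than their spread, as did Dclre1c and Xrcc4 (SD of Xrcc4 0.147 RPKM). Prkdc (SD 0.744 RPKM) was below Rag2 in each of the 3 libraries, at 4.91, 3.5 and 3.8 RPKM. Rag1 stood lowest among the genes that passed the filter. In pro-myeloid culture the order of the end joining genes was Xrcc6 (26.9), Xrcc4 (10.3), Dclre1c (7.53), Prkdc (4.5), Nhej1 (4.42) and Lig4 (1.76), and Prkdc and Nhej1 did not differ beyond their spread (SD 0.443 and 0.397 RPKM).

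The partners and regulators of the recombinase moved both ways. The list held HMGB proteins, which help the recombinase bend its target sites, and transcription factors known to act on the Rag locus. Of 13 tested genes 5 were higher, 4 lower and 4 not called (median log2 fold change -0.04, against 0.00 over all tested genes). Among all tested genes, 16.8% were higher and 20.6% lower. Hmgb1 rose by 0.86 ± 0.19 on the log2 scale (SE, adjusted p = 0.0112), and Hmgb2 was not called (-0.12, adjusted p = 0.615). Tcf3, the E2A gene, rose from 102, 99.0 and 112 CPM to 236, 296 and 279 CPM (adjusted p = 4.01e-04), and its relative Tcf12 was not called (adjusted p = 0.844). Bcl11a rose by 1.62 ± 0.20 and Ikzf1, the Ikaros gene, by 0.47 ± 0.11, the latter lost without pro-lymphoid replicate 6 or pro-myeloid replicate 4 (adjusted p = 0.0673 and 0.0565).

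The 4 factors that were lower in pro-lymphoid culture were Foxo1, Ets1, Myb and Foxp1. Foxo1, an activator of Rag transcription in B cells, stood at 6.75, 7.61 and 5.72 CPM in pro-lymphoid and 27.2, 35.9 and 27.0 CPM in pro-myeloid replicates (log2 fold change -2.17 ± 0.20, SE, adjusted p = 4.06e-04). Ets1 fell from 120, 78.4 and 101 CPM to 0.19, 0.0784 and 0.14 CPM (16 against 11937 counts, adjusted p = 9.42e-06). Ets1 passed the filter through the pro-myeloid libraries alone and so had to differ. Myb fell by 1.05 ± 0.23 and Foxp1 by 0.66 ± 0.11. Gfi1b, a known repressor of Rag transcription in B cells, rose from 14.4, 2.75 and 8.32 CPM to 103, 131 and 155 CPM (adjusted p = 0.00207).

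Other regulators gave few reads or no call. Runx1 (-0.48, adjusted p = 0.0944) and Satb1 (-0.03, adjusted p = 0.927) were not called, and the sign of Satb1 turned in several alternatives (0.02 without scaling factors, up to 0.11 without pro-myeloid replicate 4). Ebf1 had 6 against 0 counts and Gata3 6 against 8, and neither passed the filter. Pax5, also removed by the filter, had 160 counts over the pro-myeloid libraries against 4, with 0.026, 2.4 and 1.69 CPM in pro-myeloid replicates 2, 3 and 4.

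Of 8 tested accessory factors of end joining, 1 was higher, 2 were lower and 5 were not called (median log2 fold change -0.01). This compares with 16.8% higher and 20.6% lower over all tested genes. Polm, a gap-filling polymerase of V(D)J junctions related to Dntt, was lower at 1.06, 1.12 and 0.605 against 1.98, 2.46 and 2.43 CPM (adjusted p = 0.0256, lost without pro-lymphoid replicate 5 or 6 or pro-myeloid replicate 3 or 4, up to 0.0893). Tdp1, a remover of protein adducts from ends, was higher by 0.53 (adjusted p = 0.0149, lost without pro-lymphoid replicate 5 or 6, at 0.056 and 0.0505).

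Genes of other break repair pathways were called as higher more often than as lower. Of 8 tested genes of alternative end joining, 3 were higher and 0 lower (median log2 fold change 0.37), against 16.8% higher and 20.6% lower over all tested genes. Parp1, the break sensor, rose to 462, 497 and 485 CPM from 279, 214 and 238 CPM (0.98 ± 0.13, SE, adjusted p = 0.00169). Xrcc1 rose by 0.43 (lost without pro-lymphoid replicate 6 or pro-myeloid replicate 4, at 0.0615 and 0.0584). Fen1 rose by 0.74, a call kept only without pro-myeloid replicate 2 among the 6 fits with a library left out (adjusted p up to 0.106). Of 10 tested homologous recombination genes, 3 were higher and 0 lower (median 0.46), among them Bard1 (0.59, adjusted p = 0.0188) and Xrcc2 (0.68, adjusted p = 0.0341), whose adjusted p reached 0.0636 and 0.1 with a library left out. The libraries whose removal lost the call were pro-lymphoid replicate 5 and pro-myeloid replicate 4 for Bard1 and each pro-lymphoid replicate for Xrcc2.

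Of 13 tested genes of break sensing, 2 were higher, 1 lower and 10 not called (median 0.27). For this list and the next, the shares over all tested genes were 16.8% higher and 20.6% lower. Rnf8, a ubiquitin ligase at breaks, rose from 21.2, 21.6 and 20.7 CPM to 32.2, 33.3 and 33.6 CPM (adjusted p = 0.00522), and Paxip1 rose by 0.83 (adjusted p = 0.0119, lost without pro-myeloid replicate 4, at 0.0517). Mad2l2, a shieldin subunit that favours end joining, fell by 0.66 (adjusted p = 0.0182, lost without pro-lymphoid replicate 1 or 6 or pro-myeloid replicate 3 or 4, up to 0.0784). Among genes of class switching and hypermutation, 4 of 6 tested were higher and 0 lower (median 0.75), among them Ung (up by 0.86) and Exo1 (up by 1.22), the last lost without pro-lymphoid replicate 1 or 6 or pro-myeloid replicate 4 (adjusted p up to 0.0629).

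**Figure D5:**
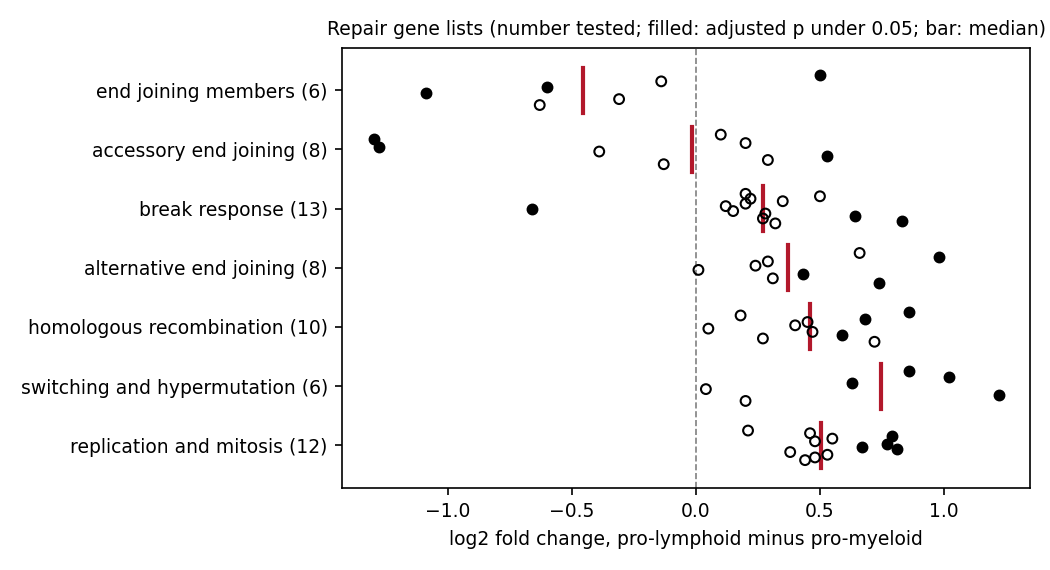
Log2 fold changes (x axis, pro-lymphoid minus pro-myeloid) of the tested genes of the end joining members and of 6 further lists (y axis, number tested in brackets), each point being 1 gene, filled where the adjusted p was under 0.05, with a red bar at the median. The median of the end joining members lies at -0.45 and those of the 6 lists between -0.01 and 0.75.

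Markers of replication and mitosis were read beside these lists. Of 12 tested, 4 were higher, 0 lower and 8 not called, Mki67 and Top2a among the last (median log2 fold change 0.50). All tested genes together gave 16.8% higher and 20.6% lower. The summed level of these markers was 5490 to 6030 CPM in pro-lymphoid and 3010 to 4970 CPM in pro-myeloid libraries. The calls of Mcm7 and Mcm2 (0.81 and 0.79) were lost without pro-lymphoid replicate 5 or 6, and that of Mcm2 also without pro-myeloid replicate 4 (adjusted p up to 0.0702 and 0.0732). The call of Mcm6 (0.67, adjusted p = 0.00944) held in all 6 fits with a library left out. The part of replication in the rise of Xrcc6 and of the recombination lists was not tested.

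Of 10 T-lineage and 10 B-lineage markers, 3 and 6 passed the filter. Cd3e, a component of the T cell receptor, had 0 counts in all libraries, Cd3d had 8, 2 and 3 counts in pro-lymphoid and 3, 10 and 10 in pro-myeloid replicates, and Cd3g had 0, 5 and 0 against 0, 1 and 0. Cd4 had 2, 21 and 5 counts in pro-lymphoid replicates 1, 5 and 6 and 0 in each pro-myeloid library, and was not tested. Summed levels were 5.23 to 13.3 CPM in pro-lymphoid and 2.1 to 19.3 CPM in pro-myeloid libraries for T-lineage, and 29.1 to 39.2 and 30.1 to 64.5 CPM for B-lineage markers, overlapping between the cultures. Of the T-lineage markers Zap70 was higher (3.93, 9.6 and 7.79 against 0, 0.0888 and 0.152 CPM) and Thy1 lower. Of the B-lineage markers Blnk was higher while the pre-B receptor genes Vpreb1 and Igll1 were lower. Shares over all tested genes were 16.8% higher and 20.6% lower. Zap70 passed the filter through the pro-lymphoid libraries alone, and Thy1, Vpreb1 and Igll1 through the pro-myeloid libraries alone. The filter thus set the direction of these differences. The calls of Vpreb1 and Igll1 were lost in 4 and 5 of 6 fits with a library left out (adjusted p up to 0.0662 and 0.152; Vpreb1 kept it without pro-myeloid replicate 2 or 3 and Igll1 without pro-lymphoid replicate 6), and Vpreb1 also with limma-voom and Igll1 also with DESeq2 and without the filter.

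Markers of other cells were read in the same way, against 16.8% higher and 20.6% lower over all tested genes. Il7r, Ly6d, Spib and Klrb1c passed the filter through the pro-lymphoid libraries alone, and Gfi1 through the pro-myeloid libraries alone. The filter thus set the direction of these differences. Of 8 lymphoid-primed progenitor markers 7 were tested, with 4 higher and 1 lower and overlapping summed levels (881 to 1250 against 889 to 1260 CPM). The interleukin 7 receptor gene Il7r stood at 17.1, 17.9 and 8.72 CPM in pro-lymphoid replicates 1, 5 and 6, lowest in replicate 6 as were Rag1 and Rag2. Such an order over 3 libraries, here or below, does not show that genes vary together. Of 8 plasmacytoid dendritic cell markers 7 were tested, with 4 higher and 1 lower and overlapping summed levels (658 to 1190 against 725 to 1160 CPM). Siglech, a marker of these cells, stood at 6.78, 93.1 and 51.1 CPM in pro-lymphoid replicates 1, 5 and 6, lowest in replicate 1, where Rag2 was highest. It stood at 0.026, 1.3 and 0.347 CPM in pro-myeloid replicates 2, 3 and 4 (adjusted p = 0.00743, and 0.0644 with limma-voom). Of 10 granulocyte and monocyte markers 9 were lower and 0 higher (summed 498 to 827 against 6360 to 10100 CPM). Of 6 NK markers 2 were tested, 1 being higher (Klrb1c, a call lost in all 6 fits with a library left out, up to 0.11), with Ncr1 and Gzma at 0 counts and summed levels of 3.05 to 4.52 against 0.729 to 4.47 CPM. Of 6 erythroid and megakaryocyte markers 2 were tested and 0 called by edgeR, with summed levels of 2.01 to 5.65 against 1.6 to 2.84 CPM. The part of any of these cells in the Rag1 and Rag2 levels was not tested.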

How the data were processed

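A single table of raw counts for 23337 genes in 6 libraries was deposited. Per the file headers, featureCounts 1.5.1 counted primary alignments over exons of the UCSC mm10 gene annotation, without strand, and Bowtie, DESeq2, TopHat and Trimmomatic are named in the submitters' processing notes. No column of another sample was present. Replicate pairs differed by more than counting noise (chi-square divided by its degrees of freedom, 40.3 or more).

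Counts were tested with edgeR 4.0.16 (R 4.3.3): filterByExpr, TMM scaling, quasi-likelihood F test, two-sided, all 6 libraries, Benjamini-Hochberg adjustment. SEs and 95% intervals derive from the F statistic. The procedure was checked on simulated counts. Alternatives were RLE or no scaling, no filter or 1 CPM in 3 libraries, DESeq2 1.42.0, limma-voom (limma 3.58.1), and each library left out. RPKM divides CPM by counted exon length. Promoters were matched by symbol. blastn was 2.17.0.

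The members and lists were chosen with earlier results of these data known. Named were all members, all Rag partners and regulators, up to 3 genes per other list with the smallest adjusted p, 3 neighbours on each side of the Rag genes, and 5 genes most like Rag2. The markers at 0 were named after their values were seen, and some genes the rule names are not reported here. Of the list symbols, Paxx, Cyren, Ercc6l2, Rad51b and Rad51d had no match among the counted genes.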

Additional observations from a re-analysis of the deposited data

How the results depend on the processing

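Over 12 alternatives for each of the 8 tested members, 92 of 96 fits kept direction and side of the threshold, 4 lost a call and 0 reversed. This total overstates stability, since the filter set the direction of Rag1 and Rag2, and Prkdc, Lig4 and Nhej1 had no call to lose. Of 12 fits each, the call was kept in 11 for Xrcc6, 9 for Dclre1c and 12 for Xrcc4. The lost calls were those of Xrcc6 without pro-lymphoid replicate 6 and of Dclre1c without pro-lymphoid replicate 5 or 6 or pro-myeloid replicate 3. With each library left out in turn, 2 to 3 members were higher and 1 to 2 lower, 1158 to 2417 of all genes were higher and 1735 to 2807 lower, and 11 to 31 genes of the partner, repair and replication lists were higher and 5 to 8 lower. All genes called as higher numbered 2091 in the analysis of 6 libraries and 1361, 1158 and 1340 without pro-lymphoid replicate 5 or 6 or pro-myeloid replicate 4, and the list genes 22 against 13, 11 and 14. The fits without 1 library hold fewer libraries by construction. No paired analysis was possible because the cultures share no replicate numbers. A difference in Dntt or Xrcc5 was not detected at this depth (adjusted p = 0.999 and 0.467 in edgeR without the filter).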
